A study of Canis lupus familiaris with 22 samples.

Results

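The comparison set the 6 canine invasive urothelial carcinoma (iUC) samples with the highest score of 4 inflammatory genes against the 6 with the lowest, out of 18 iUC samples in a series of 22 arrays. The samples were selected on measured values, the score being the mean of centred log2 values of S100A8, S100A9, CXCL8 and IL1B. S100A12, the fifth gene of the rule, had 0 probe sets in the annotation used here, so 4 of 5 score genes were measured. Each gene was centred on its mean over the 18 iUC samples for the score. The 6 iUC samples between the sides and the 4 normal bladder samples entered no test, and their values are given beside the others.

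The iUC samples were naturally occurring bladder tumours of dogs, collected by cystoscopy before therapy, and the normal samples were bladders of healthy dogs without tumour. High, middle and low samples therefore share 1 diagnosis and carry no treatment, engineered allele or time point that would separate them. The dogs differed in sex, age and tumour stage, which the sample labels do not assign to arrays. Each array held total RNA of 1 sample made from 5 µg, and the labels call the samples of a group biological replicates. The deposited values are log2 values centred for each probe set on the median of the 22 arrays, so a value states a distance from the typical array of the series and no expression level can be read from it.

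S100A8 and S100A9 form calprotectin, a calcium- and metal-binding protein complex that neutrophils carry in their cytosol and that stressed epithelium also makes. CXCL8 attracts neutrophils through the receptors CXCR1 and CXCR2, and IL1B is a cytokine of activated myeloid cells that induces chemokines in neighbouring cells. In the bladder, neutrophils enter the wall and the urine during infection and are also found in tumours.

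The score ran from 1.85 in iUC replicate 16 to -1.85 in iUC replicate 7, and most of that range came from S100A8 and S100A9. These values chose the samples and are a description only. The SD over the 18 iUC samples was 2.11 for S100A8, 1.77 for S100A9, 1.26 for CXCL8 and 0.0964 for IL1B. IL1B lay between -0.15 and 0.20 in all 18 iUC samples and so barely contributed. Over the 18 iUC samples, which share arrays and processing, Pearson's r was 0.944 between S100A8 and S100A9 and 0.157 between S100A8 and IL1B.

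The high side was not of 1 kind. In iUC replicate 16 the score was 1.85, with values of 2.08 for S100A8, 1.52 for S100A9 and 2.88 for CXCL8. In iUC replicate 10 the score was 1.27, with S100A8 at 0.62, S100A9 at 0.69 and CXCL8 at 2.85. The next highest CXCL8 value among the iUC samples was 0.79. In iUC replicates 12, 4 and 15 the scores were 1.71, 1.53 and 1.44. S100A8 was 2.88, 2.31 and 2.97 in these samples, S100A9 was 2.44, 2.83 and 2.26, and CXCL8 was 0.79, 0.27 and -0.06. Their place on the high side thus came from the calprotectin genes. The last member, iUC replicate 3, had a score of 0.47, with S100A8 at 0.81, S100A9 at 0.73 and CXCL8 at -0.36.

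On the low side, both calprotectin genes were low in every sample. The scores of iUC replicates 11, 18, 14, 1, 5 and 7 were -0.72, -0.95, -0.99, -1.26, -1.64 and -1.85. S100A8 was -1.74, -2.66, -1.09, -2.27, -3.93 and -3.81 in that order, and S100A9 was -2.04, -1.52, -2.30, -2.24, -2.20 and -2.95. CXCL8 was 0.15, -0.39, -1.29, -1.15, -1.21 and -1.25. Every low sample was thus below 0 for S100A8 and S100A9, and 1 of the 6 was above 0 for CXCL8. At the edges of the rule, iUC replicate 3 at 0.47 was taken into the high side and iUC replicate 9 at 0.43 was not, and iUC replicate 11 at -0.72 was taken into the low side and iUC replicate 6 at -0.69 was not.

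The normal bladder samples were not at the low end. Their scores, on the same centring, were 3.58, 0.91, 1.73 and 0.84 for replicates 1 to 4, all above the score of iUC replicate 3. CXCL8 was 5.26, 0.11, 2.05 and 1.10 in normal replicates 1 to 4. Normal replicate 1 stood above every iUC sample for each of the 4 score genes.

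**Figure D1:**
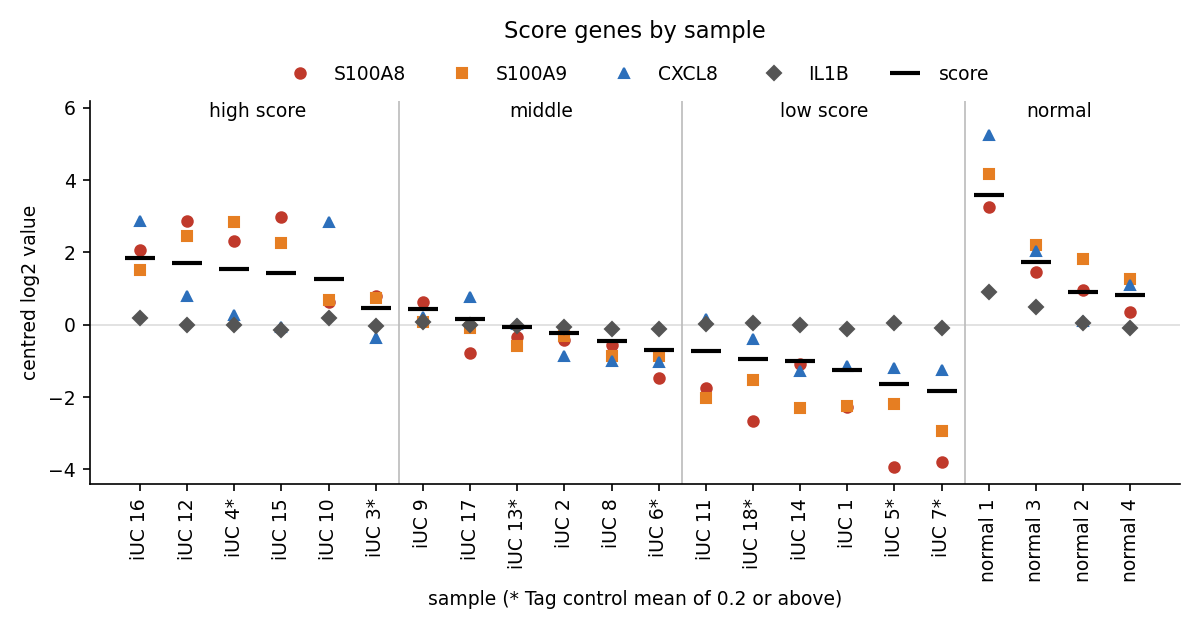
Centred log2 values of S100A8, S100A9, CXCL8 and IL1B in each of the 22 samples, with the score as a black bar; the iUC samples are ordered by score and grouped as high, middle and low, and an asterisk marks a Tag control mean of 0.2 or above. CXCL8 reaches 2.88 and 2.85 in iUC replicates 16 and 10 and stays at 0.79 or below in the other 4 high samples, while IL1B lies near 0 in every iUC sample.

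An array mean of 0.2 or above over the 17 Tag control probe sets, which splits the iUC arrays of the series, was found in 2 of 6 high samples (iUC replicates 4 and 3) and 3 of 6 low samples (iUC replicates 18, 5 and 7). It was found in 2 of 6 middle samples and 0 of 4 normal samples. The Tag mean was 0.115 ± 0.248 (SD) on the high side and 0.202 ± 0.233 on the low side (exact permutation test over the 924 splits, two-sided p = 0.526). Of 7 array measures, among them the GAPDH and actin controls, the 3′ to 5′ difference and the labelling controls, none passed the exact permutation test between the sides, with an adjusted p of 0.786 for each.

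No gene was called between the sides. Of 15111 genes tested outside the score, 0 (0%) had an adjusted p of 0.05 or below with a 2-fold difference in limma, and the smallest adjusted p was 0.9996. At an unadjusted p under 0.05 there were 362 genes (2.4%), 283 of them higher (1.87%) and 79 lower (0.523%) in the high samples. Of these, 80 (0.529% of all genes) were 2-fold or more higher and 15 (0.0993%) 2-fold or more lower. A threshold of 0.05 would by itself pass, on average, a larger share than 2.4% if no gene differed. The difference was above 0 for 7310 genes (48.4%). Without any test, 136 genes (0.9%) were 2-fold or more higher and 30 (0.199%) 2-fold or more lower. A plain unpaired t-test of each gene, which the study names for its cross-species step, gave 0 genes after Benjamini-Hochberg adjustment, and 65 higher and 11 lower at a p of 0.05 and 2-fold without it. The differences below are therefore measured values, each with an adjusted p of 0.9996 or above in limma, and none of them passed the test.

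The precision of that comparison can be read from the intervals. The median standard error over the genes was 0.195 on the log2 scale. For 12104 of the 15111 genes the 95% confidence interval of the difference lay within 2-fold in both directions, a share of 80.1%. For the remaining genes the interval reached beyond 2-fold, so a difference of that size was not excluded with these arrays. For SLPI, the gene of largest difference, it lay wholly beyond 2-fold, at 1.37 to 5.73. These intervals are not adjusted for the number of genes. No filter on expression level was possible, so the share of 80.1% also counts any gene that was not expressed. Over the 31 lists the share ran from 30.8% for epithelial defence genes to 100% for mast cell and eosinophil genes and for red cell and platelet genes.

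**Figure D2:**
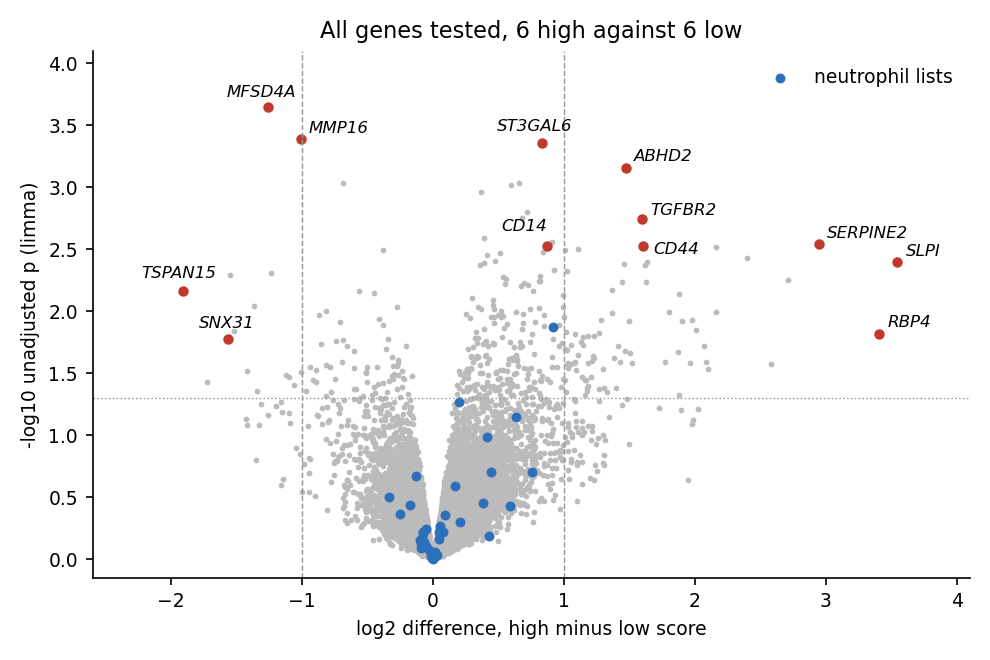
Log2 difference between the 6 high and 6 low samples (horizontal axis) against minus log10 of the unadjusted limma p (vertical axis) for each of 15111 genes; dashed lines mark 2-fold, the dotted line marks an unadjusted p of 0.05, blue points are genes of the neutrophil lists and red points are genes named in the text. The differences run from -1.91 to 3.55, and the blue points reach 0.92 at most, for MXD1.

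Genes that define neutrophils differed little between the sides. CSF3R, the receptor for granulocyte colony-stimulating factor, had values of -0.34, 0.04 and 0.29 (lowest, median, highest) in the high samples and -0.17, 0.05 and 0.40 in the low samples. The sides overlapped throughout, the difference was -0.07 ± 0.14 (SE) and its 95% interval ran from -0.37 to 0.23. The 3 probe sets of CSF3R gave differences between -0.16 and 0.03. MPO, the myeloperoxidase of primary granules, had values of -0.05, 0.07 and 0.22 in the high and -0.13, 0.03 and 0.22 in the low samples, with a difference of 0.05 (95% interval -0.13 to 0.24). ELANE, the neutrophil elastase gene, differed by -0.01 (95% interval -0.43 to 0.40). A 2-fold difference lay outside the interval for each of these 3 genes. With the Tag class as a term the differences were -0.01 ± 0.08 (SE) for CSF3R, 0.07 ± 0.07 for MPO and 0.07 ± 0.13 for ELANE.

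Among the other neutrophil genes, FPR2, a receptor for formyl peptides and lipid mediators, differed by -0.07 (95% interval -0.39 to 0.24). MMP8, the collagenase of secondary granules, differed by -0.17 (95% interval -0.58 to 0.23), and CAMP, the cathelicidin precursor, by 0.05 (95% interval -0.20 to 0.29). LTF, the lactoferrin gene of secondary granules, had the widest interval, -1.03 to 0.36, around a difference of -0.34. Within the Tag classes below 0.2 and of 0.2 or above, LTF differed by 0.26 and -1.08, and FPR2 by 0.16 and -0.26. The difference between the classes was not tested. With the Tag class as a term, MMP8 differed by -0.08 ± 0.09 (SE), CAMP by 0.09 ± 0.08, FPR2 by -0.01 ± 0.10 and LTF by -0.29 ± 0.32. CXCR1, CXCR2 and FPR1, which also define neutrophils, were not measured here. The samples are therefore described by their S100A8, S100A9 and CXCL8 values, and the name "neutrophil-inflamed" is not used for them. In tissue RNA of this kind, fewer cells of a type and less RNA per cell cannot be told apart.

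**Figure D3:**
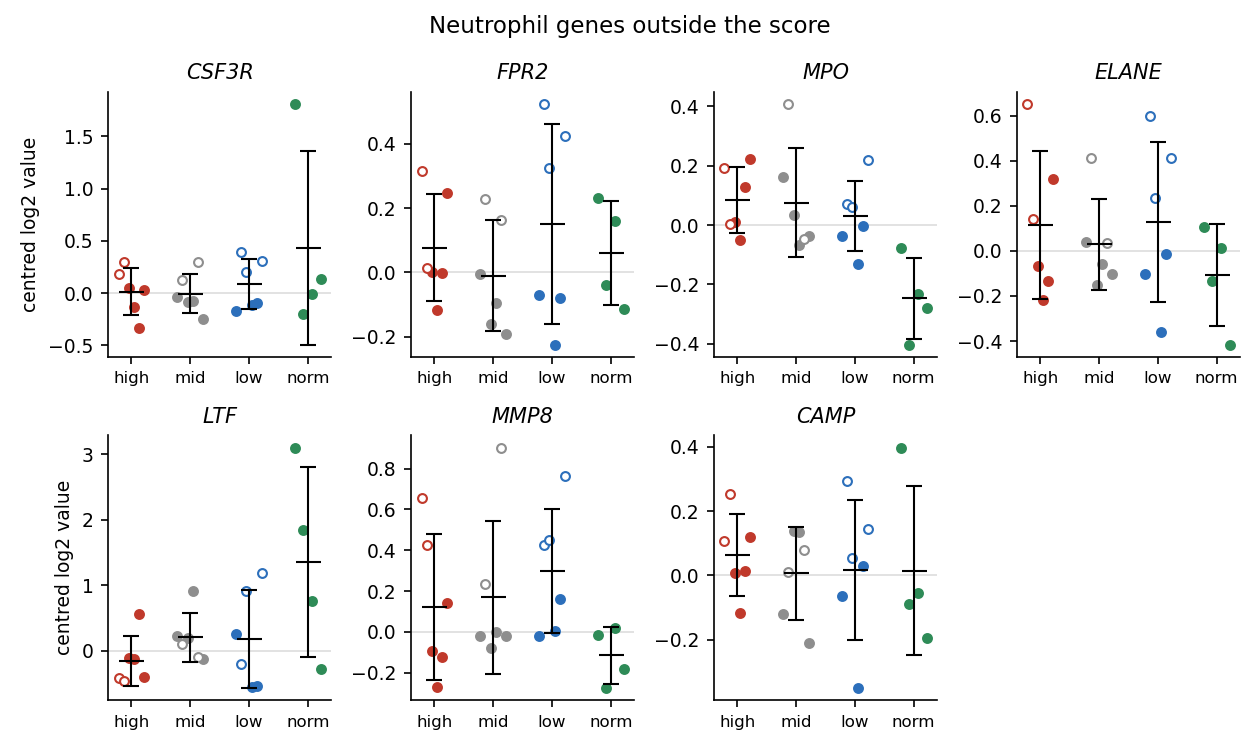
Centred log2 values of 7 neutrophil genes that were not in the score, in 6 high, 6 middle, 6 low and 4 normal samples; each point is 1 sample, open points have a Tag mean of 0.2 or above, and bars show the mean and SD. High and low samples overlap for every gene, and normal replicate 1 lies at 1.81 for CSF3R.

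The 17 measured genes of the neutrophil granule list had a median difference of 0.01, beside -0.01 over all genes tested, and 0 of them reached an unadjusted p of 0.05. CTSC, which activates granule serine proteases, had the largest difference of the 2 members of smallest p, 0.76 ± 0.56 (SE), and STOM, a membrane protein of granules and red cells, differed by 0.64. The 21 measured neutrophil receptor and oxidase genes had a median of 0.00, and 1 of them, MXD1, reached an unadjusted p of 0.05 (limma p = 0.0134). Over all genes, 2.4% reached that level in either direction. MXD1, a transcription repressor found in mature neutrophils and in differentiating epithelium, had values of -0.25, 0.57 and 1.46 in the high and -1.20, -0.19 and 0.18 in the low samples. BST1, a myeloid surface enzyme, differed by 0.20 ± 0.09. For 19 of the 21 genes, the 95% interval lay within 2-fold.

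Few of the cytokines that raise and recruit granulocytes were measured outside the score. CSF3, the granulocyte colony-stimulating factor, had values of -0.29, 0.05 and 0.79 in the high and -0.06, 0.27 and 0.67 in the low samples. Its difference was -0.17 (95% interval -0.59 to 0.26), and that of CSF1, the macrophage growth factor, was -0.34. Every iUC array with a Tag mean of 0.2 or above had a CSF1 value of 1.03 or more, and every other iUC array was at 0.24 or below. With the Tag class as a term the differences were -0.07 for CSF3 and -0.10 for CSF1. The 4 measured genes of this list, out of 10, had a median difference of -0.18, or -0.05 with the Tag class as a term, and CXCL1, CXCL5 and CXCL6 were not measured here. TNF differed by -0.03 (95% interval -0.51 to 0.44), or by 0.08 ± 0.09 (SE) with the Tag class as a term. IL6 differed by 0.13 (95% interval -0.44 to 0.70), and its values of 1.62 to 4.38 in the normal samples were above those of every iUC sample.

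PTGS2, the inducible cyclooxygenase and a drug target in canine iUC, varied more than the sides did. Its values were -1.95, 1.17 and 2.77 in the high and -2.76, -0.83 and 1.66 in the low samples, with wide overlap. The difference was 1.20 ± 0.93 (SE), with a 95% interval from -0.84 to 3.24. Of 23 genes of prostaglandin and leukotriene synthesis and signalling, 0 reached an unadjusted p of 0.05 and the median difference was -0.03. ALOX5, the first enzyme of leukotriene synthesis, differed by 0.45 and PLA2G4A, which releases arachidonic acid, by 0.80.

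In the IL-1 family, 1 of 19 measured genes, IL1A, reached an unadjusted p of 0.05 (limma p = 0.00943), beside 1.87% of all genes. The list's median difference was 0.02. IL1A, an alarmin of epithelial cells, had values of -0.05, 0.58 and 1.55 in the high and -0.65, -0.34 and 0.29 in the low samples, a difference of 0.81 ± 0.26 (SE). IL1R2, the decoy receptor, differed by 0.41. Of 34 TNF, IL-6 and IL-17 family genes, 2 reached that level, both higher in the high samples, beside 1.87% of all genes. TNFRSF1A, the main TNF receptor, differed by 0.73 and OSMR, a receptor subunit for oncostatin M, by 0.62, while the list's median was -0.05.

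Among 35 genes of the NF-kB pathway and its targets, 5 reached an unadjusted p of 0.05, all higher in the high samples, beside 1.87% of all genes. The median difference was 0.18. SOD2, the mitochondrial superoxide dismutase, had values of -0.39, 0.47 and 1.07 in the high and -1.10, -0.44 and 0.03 in the low samples, a difference of 0.85. ZC3H12A, an RNase that limits cytokine transcripts, differed by 0.54. SAA1, an acute phase protein, differed by 2.08 ± 0.82 (SE). SAA1, NFKBIB, an inhibitor of NF-kB, and PLAU, the urokinase gene, were picked once their values were known, and the latter pair differed by 0.20 and 1.18. With arrays of a Tag mean of 0.2 or above alone, PLAU differed by -0.05. SOD2 was 0.81 to 1.93 in the normal samples.

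Of 20 measured toll-like receptor and sensor genes, 1 reached that level, higher in the high samples, beside 1.87% of all genes. CD14, the co-receptor for bacterial lipopolysaccharide, had values of -0.02, 0.56 and 0.89 in the high and -1.28, -0.10 and 0.00 in the low samples, and 5 of 6 high samples lay above every low sample. The difference was 0.87 ± 0.23 (SE) and the limma p was 0.00296 without adjustment. CLEC7A, the fungal glucan receptor, differed by -0.79, and the list's median difference was -0.06.

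The largest single difference was in a gene of epithelial defence. SLPI, a secreted inhibitor of neutrophil elastase made by epithelium, had values of -0.25, 4.17 and 6.42 in the high and -0.21, -0.09 and 2.23 in the low samples. In 5 of 6 high samples SLPI was above every low sample, and in iUC replicate 3 it was below all of them. The difference of 3.55 ± 1.00 (SE) was the highest of 15111 genes. In the normal samples SLPI was -1.25 to -0.68, below every iUC sample.

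Of 26 measured epithelial defence genes, 4 reached an unadjusted p of 0.05, all higher in the high samples, beside 1.87% of all genes, and the median difference was 0.12. Besides SLPI they were DUOX2, a hydrogen peroxide producing oxidase, at 1.01, PI3, the elastase inhibitor elafin, at 0.94, and TFF3, a trefoil peptide of mucosal repair, at 0.78. DUOX2 was at most 0.08 in the low samples and reached 2.62 in iUC replicate 3, the sample with the lowest SLPI of the high side. PI3 and TFF3 were picked once their values were known.

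Of 25 matrix proteases and inhibitors, 6 reached that level, all higher, beside the same 1.87% of all genes, with a median difference of 0.06 for the list. SERPINE2, a serpin that inhibits thrombin and plasminogen activators, had values of -1.16, 1.24 and 4.12 in the high and -2.91, -1.64 and -0.67 in the low samples, a difference of 2.95 ± 0.79 (SE). PLAT, the tissue plasminogen activator, differed by 2.16, but iUC replicate 11 of the low side, at 1.85, was above 5 of the 6 high samples. TIMP1 and TIMP2, inhibitors of metalloproteinases, differed by 2.01 and 1.90, MMP1, an interstitial collagenase, by 1.39 and SERPINA1, the antitrypsin gene, by 0.60. TIMP1, TIMP2, MMP1 and SERPINA1 are named because the count was small, and were picked once their values were known.

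**Figure D4:**
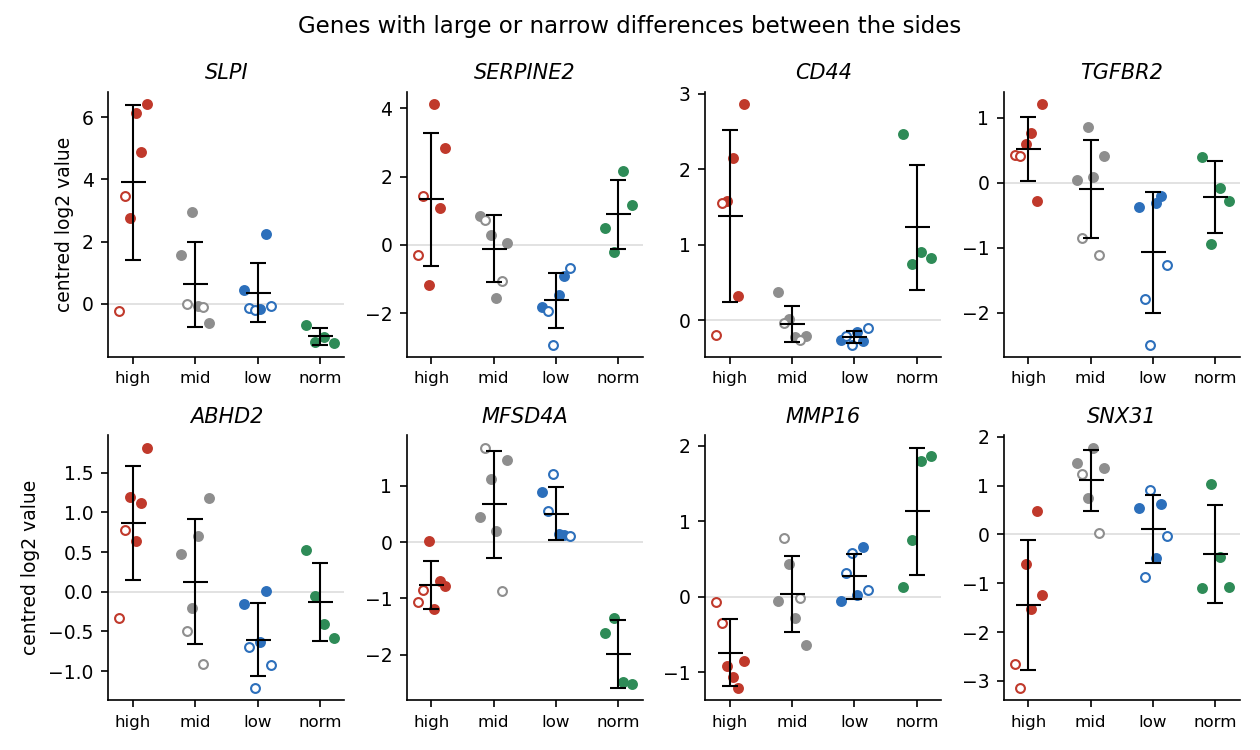
Centred log2 values of 8 genes with large or narrow differences, in 6 high, 6 middle, 6 low and 4 normal samples; each point is 1 sample, open points have a Tag mean of 0.2 or above, and bars show the mean and SD. SLPI reaches 6.42 on the high side with 1 high sample at -0.25, and for MFSD4A and MMP16 all 6 high samples lie below all 6 low samples.

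Of 21 adhesion and transmigration genes, 3 reached an unadjusted p of 0.05, all higher in the high samples, beside 1.87% of all genes, and the median difference of 0.26 was the highest of the 31 lists. CD44, the hyaluronan receptor of basal epithelium and leukocytes, had values of -0.19, 1.57 and 2.87 in the high and -0.32, -0.23 and -0.11 in the low samples. The low samples thus lay within a narrow band, and 5 of 6 high samples were above it. The difference was 1.60 ± 0.43 (SE). ESAM and ICAM2, adhesion molecules of endothelium, differed by 0.47 and 0.49. Of 12 checkpoint and myeloid suppression genes, 3 reached that level, all higher, beside the same 1.87%, with a median of 0.18. ENTPD1, the ectonucleotidase CD39, differed by 1.36, with iUC replicates 15, 12 and 16 at 2.08, 2.23 and 2.52 and the other 3 high samples at 0.00 to 0.30. ARG2, an arginase, differed by 0.64 and TGFB1 by 0.51. ICAM2 and TGFB1 were picked once their values were known.

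The 10 genes of smallest unadjusted p that were higher in the high samples were ST3GAL6, ABHD2, WIPI1, NFIL3, AFAP1, ELK3, GK, TGFBR2, GFOD2 and EPS8. ST3GAL6, a sialyltransferase, had values of -0.14, 0.72 and 1.09 in the high and -0.34, -0.18 and -0.08 in the low samples, a difference of 0.83 ± 0.17 (SE, limma unadjusted p = 0.000442). Without iUC replicate 10 the difference was 0.99 with an adjusted p of 0.0328 in limma, still under 2-fold for the mean of its 2 probe sets, which differed by 0.11 and 1.56 over all 12 samples. ABHD2, a lipid hydrolase, differed by 1.47 and TGFBR2, the type 2 receptor for transforming growth factor beta, by 1.60. The remaining 7 differed by 0.36 to 0.91, GK, the glycerol kinase, by 0.68 with 1 of its 4 probe sets at -0.01. The probe sets also disagreed in size for AFAP1, at 0.03 to 0.70, NFIL3, at 0.11 to 1.22, and EPS8, at 0.13 to 1.69.

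Only 3 genes (0.0199%) had all 6 high samples above all 6 low samples. AFAP1, an actin-associated adaptor, differed by 0.36, ELK3, an ETS transcription factor, by 0.72 and GRAMD1A, a sterol transporter, by 0.30. Another 4 genes (0.0265%) had all 6 high samples below all 6 low samples, namely MFSD4A, MMP16, ST7 and TNNI3K, which made 7 in all (0.0463%). GRAMD1A and TNNI3K were named for this separation, once their values were known.

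The 10 genes of smallest unadjusted p that were lower in the high samples were MFSD4A, MMP16, PPCDC, ST7, LEAP2, CRYM, SUSD1, TSPAN15, RANBP17 and CHMP4C. MFSD4A, a protein of the transporter superfamily, had values of -1.19, -0.82 and 0.01 in the high and 0.11, 0.34 and 1.21 in the low samples. The difference was -1.26 ± 0.24 (SE), and its unadjusted limma p of 0.000227 was the smallest of all genes. The normal samples were lower still, at -2.52 to -1.34. MMP16, a membrane-bound metalloproteinase, had values of -1.21, -0.89 and -0.07 in the high and -0.06, 0.20 and 0.66 in the low samples, so that the sides were parted by the narrow gap between iUC replicates 3 and 1. Its difference was -1.01, and on the slope over the score of all 18 iUC samples its adjusted p was 0.0834 in limma, the smallest of that fit.

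The largest difference downward was that of TSPAN15, a tetraspanin partner of the protease ADAM10, at -1.91 ± 0.59 (SE). Its values were -3.13, -1.47 and -0.09 in the high and -1.71, 0.96 and 1.37 in the low samples. In iUC replicate 5, which held the lowest value of the low side, TSPAN15 was below 5 of the 6 high samples. CRYM, a thyroid hormone binding protein, differed by -1.55, CHMP4C, a subunit of the membrane scission complex ESCRT-III, by -1.37 and LEAP2, an antimicrobial and ghrelin receptor binding peptide, by -1.24. PPCDC, ST7, SUSD1 and RANBP17 differed by -0.69 to -0.38.

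The luminal and squamous lists showed few differences. SNX31, a sorting nexin of umbrella cells, had values of -3.15, -1.38 and 0.47 in the high and -0.87, 0.26 and 0.91 in the low samples, a difference of -1.57 ± 0.56 (SE, limma unadjusted p = 0.0167). AQP3, a water and glycerol channel, differed by 1.39. These 2 were the only ones of 37 luminal genes at that level, beside 2.4% of all genes, and the list's median difference was -0.09. Of 44 squamous and cornified genes, 1 reached it, ECM1, an extracellular matrix protein of skin, at 0.68. KRT16, a keratin of stressed epithelium, differed by 1.27 ± 0.59, and the list's median was 0.07. Of 12 EGFR ligands and receptors, 1 reached it, the ligand HBEGF at 0.39, and ERRFI1, a feedback inhibitor of EGFR, differed by 1.08.

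Interferon-stimulated genes were the 1 list with several members lower in the high samples. Of 37 measured, 7 reached an unadjusted p of 0.05, all lower, beside 0.523% of all genes, and the median difference was -0.27, or -0.56 after quantile normalization. IFIT2, an antiviral RNA-binding protein, had values of -0.97, -0.41 and 0.12 in the high and -0.10, 0.22 and 1.22 in the low samples, a difference of -0.82 ± 0.27 (SE). HERC5, the ISG15 ligase, differed by -0.74. IFI44, RTP4, PARP9, RSAD2 and DHX58, picked once their values were known, differed by -1.42 to -0.42.

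The 2 Tag classes parted on the interferon list. On arrays with a Tag mean below 0.2, 4 high against 3 low samples, the median of the list was -0.84. On arrays with a Tag mean of 0.2 or above, 2 high against 3 low samples, it was 0.28. IFI44 differed by -2.58 within the former class and by 0.13 within the latter, and the difference between the classes was not tested. Leaving out each of the 12 samples in turn kept the list's median between -0.41 and -0.16. The middle samples held the extremes of this list, with sample means from -0.85 to 2.04, against -0.42 to 0.32 on the high side and -0.56 to 0.74 on the low side. CXCL10, an interferon-induced chemokine, differed by 0.92 ± 0.91 (SE), by -0.26 within the former class and by 2.49 within the latter.

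**Figure D5:**
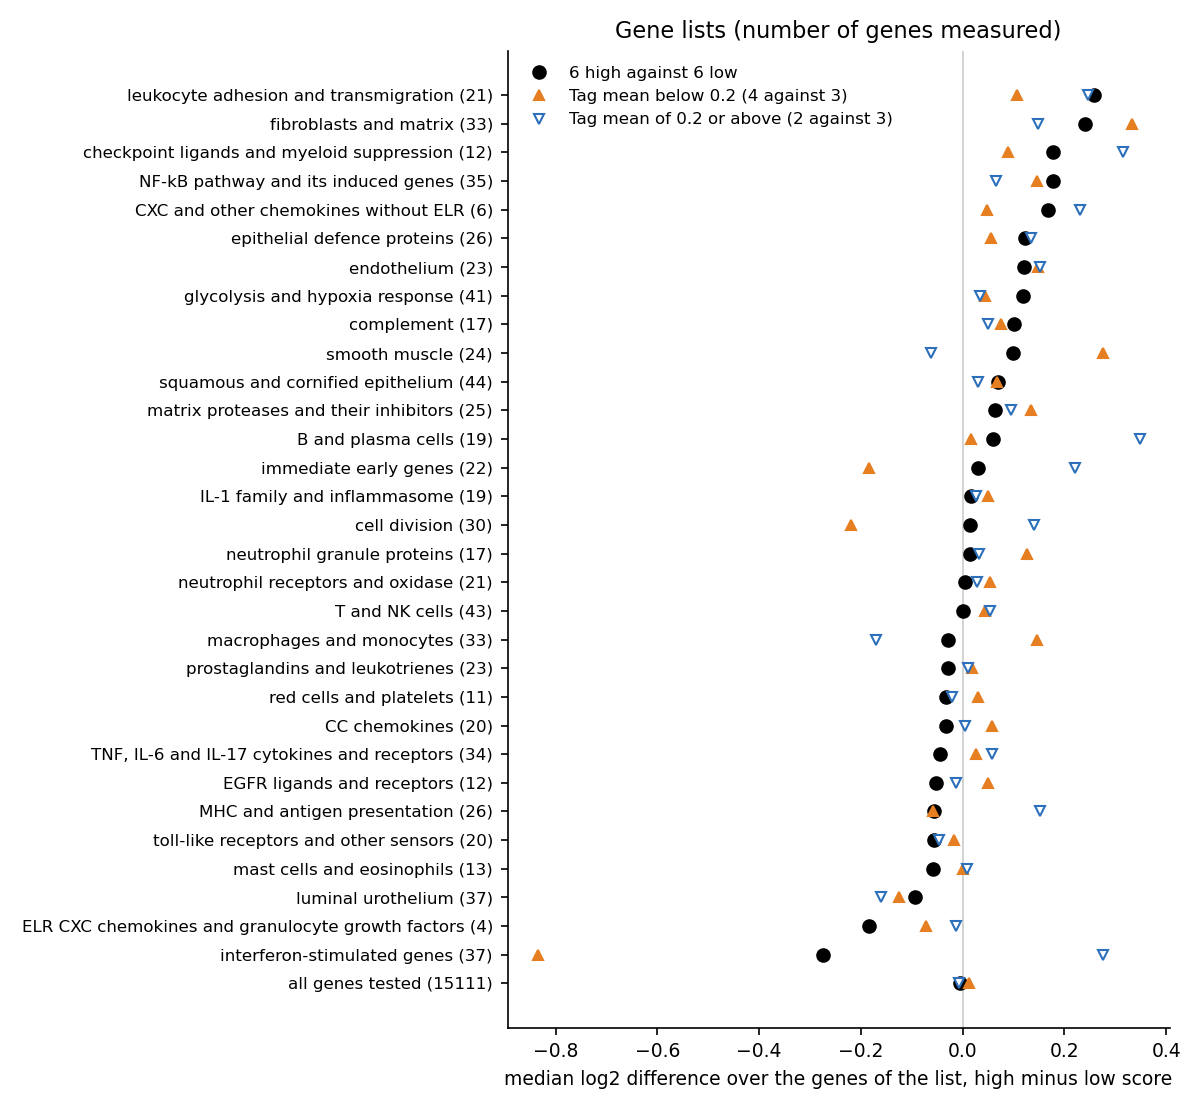
Median log2 difference between high and low samples over the measured genes of each of 31 lists and over all genes tested (black circles), with the same on arrays of a Tag mean below 0.2 (orange triangles) and of 0.2 or above (open blue triangles). The medians run from -0.27 to 0.26, the neutrophil lists lie at 0.01 and 0.00, and the 2 classes part most on the interferon-stimulated genes, at -0.84 and 0.28.

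The lists of other leukocyte markers had median differences near 0 over the 12 samples, while single members differed more. CD14, at 0.87, was counted in the sensor list above and not here. Of 33 macrophage and monocyte genes, 0 reached an unadjusted p of 0.05, with a median difference of -0.03, 0.15 on arrays of a Tag mean below 0.2 and -0.17 on the others. LGMN and SLC11A1, a lysosomal protease and a phagosomal metal transporter, differed by 0.75 and 0.49. Of 43 T and NK cell genes, GZMB at 0.36 and HAVCR2 at -0.31 reached that level, beside 2.4% of all genes. The median was 0.00, with 40 of the 43 intervals within 2-fold. Sample means of the T and NK list were -0.21 to 0.47 in the high and -0.11 to 0.33 in the low samples.

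Of 19 B and plasma cell genes, 2 reached an unadjusted p of 0.05, both higher in the high samples, beside 1.87% of all genes. The median was 0.06, with 0.02 on arrays of a Tag mean below 0.2 and 0.35 on the others. Without iUC replicate 4 the median was -0.08. FKBP11, a chaperone of secretory cells, differed by 1.64 ± 0.46 (SE) and PRDM1, the plasma cell factor that epithelium and T cells also express, by 0.96. Mast cell and eosinophil genes, 13 measured, and red cell and platelet genes, 11 measured, had 0 members at that level and all intervals within 2-fold, with medians of -0.06 and -0.03.

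Stromal lists had medians above 0. Of 33 fibroblast and matrix genes, FBLN1 reached an unadjusted p of 0.05 at a difference of 1.08, beside 1.87% of all genes. FBLN2 differed by 1.48 ± 0.68 (SE), and the median was 0.24. The sample means of this list were -0.44 to 0.82 in the high and -0.90 to 0.22 in the low samples. Of 23 endothelial genes, VWF reached that level at 1.17, KDR, a receptor for vascular endothelial growth factor, differed by 1.14, and the median was 0.12. Of 24 smooth muscle genes, 0 reached it, and the median was 0.10, with -0.06 on arrays of a Tag mean of 0.2 or above alone. The part of stromal content in the differences of SERPINE2, TIMP1, TIMP2 and TGFBR2 was not tested.

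The remaining lists had few members at that level, which 2.4% of all genes reached. Cell division genes, 30 measured, had a median of 0.01, -0.22 and 0.14 in the Tag classes below 0.2 and of 0.2 or above, and 0 members at an unadjusted p of 0.05, with UBE2C at -0.09 and KIF4A at -0.31. Of 41 glycolysis and hypoxia genes, PFKFB3, a regulator of glycolysis, and EPAS1, the hypoxia factor HIF-2 alpha, reached it at 0.44 and 0.65, and the median was 0.12. Of 22 immediate early genes, KLF6 reached it at 0.92, and the median was 0.03, with -0.18 and 0.22 in these classes. Of 26 antigen presentation genes, CTSH, a lysosomal protease, reached it at 1.15, and the median was -0.06.

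Chemokines and complement held no member at that level. The 20 CC chemokines had a median of -0.03, with CCL5, which draws T cells, at 0.76 ± 0.36 (SE). The 6 chemokines without the ELR motif had a median of 0.17, with CXCL16 at 0.47, and the 17 complement genes had a median of 0.10. RBP4, a retinol carrier with the second largest difference of all genes, 3.41 ± 1.20 (SE), was named once its values were known. Its values were -1.52, 1.52 and 3.56 in the high and -4.18, -3.24 and 2.52 in the low samples, so that iUC replicate 11 of the low side lay among the highest.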

How the data were processed

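RNA of 18 canine iUC and 4 normal bladder samples was hybridised to Affymetrix Canine 2.0 arrays, 1 array a sample. The authors used GeneSpring GX. The deposited table gives 43035 probe sets as log2 values, each centred on its median over the 22 arrays. Probe summarisation, normalization between arrays and genome build are not given in the sources, and centring keeps no level to filter on.

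After 111 controls were removed, 29254 of 42924 probe sets had 1 gene symbol, 439 several and 13231 none in the platform annotation. Entrez numbers of 27680 probe sets were found in a RefSeq table, which changed 0 symbols. A gene was the mean of its single-symbol probe sets, giving 15115 genes.

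The test of high against low samples was limma 3.58.1, run in R 4.3.3 (lmFit, eBayes, no covariate, as the methods' moderated test), with Benjamini-Hochberg adjustment over 15111 genes. Score genes were left out. A call needed an adjusted p of 0.05 or below and 2-fold. Standard errors and 95% intervals are limma's. The p-values measure spread between these samples, and the number of arrays limits precision. Because the sides were formed from values of the same arrays, no test here is independent of array-wide effects. Array measures were compared by exact permutation.

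The score rule, sample sides and 31 gene lists were chosen with earlier results of these data known. Genes named were, by rule, the 10 of smallest p in each direction, as no gene was called, the 2 of smallest p in each list, and fixed neutrophil and cytokine genes. Others were picked once their values were known, as stated beside them.

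Alternatives were the Tag class or Tag mean as a term, either Tag class alone, quantile and 75th percentile normalization, single probe sets, a filter on the lowest 20% of SD, array weights, a plain unpaired t-test, the middle samples as a level, the slope on the score and leaving out each of 12 samples. Code was tested on simulated data. Python 3.11, pandas 2.3.3 and matplotlib 3.10.9 were used.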

Additional observations from a re-analysis of the deposited data

Results flagged for a closer look

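Of 314 groups of 4 or 6 values tested with Dixon's rule, 24 held a sample far from the others. Chance flags about 1 in 20 groups. On the high side, LTF was 0.55 in iUC replicate 15 against -0.47 to -0.11 in the others, KLF6 -1.06 in iUC replicate 3 against 0.12 to 0.75, TFF3 2.36 in iUC replicate 16 against 0.10 to 0.55 and GRAMD1A 0.48 in the same sample against 0.11 to 0.20. UBE2C was 0.38 in iUC replicate 4 against -0.10 to 0.07. The mean of the labelling controls was 1.30 in iUC replicate 10 against -0.52 to 0.14.

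On the low side, iUC replicate 11 stood apart for GK at 0.19 against -0.71 to -0.46, for IL6 at 0.62 against -0.10 to 0.07, for ALOX5 at 0.49 against -0.23 to 0.04 and for PI3 at 1.03 against -1.03 to -0.45. SLPI was 2.23 in iUC replicate 14 against -0.21 to 0.45. In iUC replicate 5, TSPAN15 was -1.71 against 0.56 to 1.37 and IFI44 -1.47 against 0.95 to 2.22. FBLN2 was 0.17 in iUC replicate 1 against -1.11 to -0.91, and SERPINA1 0.11 in iUC replicate 18 against -0.71 to -0.41.

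Among the normal samples, replicate 1 stood apart for MMP1 at 4.18, SLC11A1 at 2.48, CD44 at 2.47, CSF3R at 1.81, CTSC at 1.29, HBEGF at 0.74 and DUOX2 at -0.38. Replicate 2 stood apart for HERC5 at 3.55 and ERRFI1 at -1.02.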

How the results depend on the processing

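No gene was called in limma under any of the alternatives tried, with between 232 and 1087 genes at an unadjusted p under 0.05. Leaving out each of the 12 samples in turn gave 0 to 0 calls in both directions. The plain t-test without adjustment gave 65 genes higher and 11 lower. With the Tag class as a term 827 of 15111 genes were at an unadjusted p under 0.05, with array weights 1087, with the Tag mean as a number 976, on the slope over 18 samples 1010, and with arrays of a Tag mean below 0.2 or of 0.2 or above alone 671 and 706. Single probe sets gave 627 of 29246 and the filter on SD 330 of 13629. Without iUC replicate 4 there were 553, without iUC replicate 3 545, without iUC replicate 7 232 and without iUC replicate 16 240. After quantile normalization 11 of the 12 samples kept their side, with iUC replicate 18 leaving the low side for iUC replicate 8.

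The 2300 comparisons of a named gene with an alternative covered 88 genes whose difference exceeded its standard error and 12 within 1 standard error of 0. Among the 88 genes, 6 values changed sign. With arrays of a Tag mean below 0.2 alone LTF was 0.26 and CXCL10 -0.26, and with arrays of 0.2 or above alone PLAU was -0.0525, IFI44 0.13, RTP4 0.00623 and RSAD2 0.27. The cause was not tested. Among the 12 genes within 1 standard error of 0, 33 values changed sign. No paired analysis was possible because both sides come from 1 group of unpaired tumours.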
